A study of Homo sapiens with 6 samples.

Results

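RNA sequencing of SW480 cells, a human colon adenocarcinoma line, was examined for 10 genes of mitochondrial fusion, fission and mitophagy. The genes were *MFN1*, *MFN2*, *OPA1*, *DNM1L*, *FIS1*, *MFF*, *PINK1*, *BNIP3*, *BNIP3L* and *FUNDC1*. They were found by their symbols, and all 10 were among the 12982 genes of the deposited table. The cells, labelled as wild type, were cultured for 24 h with DMSO, the solvent, in 3 libraries, or with MPM-1, a fluorescent molecule that accumulates in mitochondria and that the labels also call WT4, in 3 libraries. The labels give no dose for the sequenced cells, and they do not say whether the 3 libraries of a treatment came from separate cultures. The p-values therefore measure the spread between these libraries, which may be technical. The comparison asked which genes of the mitochondrial machinery were higher or lower after MPM-1.

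Mitochondria form a network that is remodeled by fusion and fission. MFN1 and MFN2 are GTPases that join outer membranes and OPA1 joins inner membranes, while the GTPase encoded by *DNM1L* (DRP1) is recruited by adaptors such as MFF and FIS1 and constricts the organelle. Damaged mitochondria are removed by mitophagy, either after the kinase PINK1 accumulates on them and starts their coating with ubiquitin, or through outer membrane receptors such as BNIP3, BNIP3L (NIX) and FUNDC1, which bind ATG8 proteins of the forming autophagosome directly.

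The libraries held 31733667 to 40269820 counts each. Of 11 markers of colorectal epithelium, 10 were in the table and each was above 1 FPKM (fragments scaled for transcript length and library size, computed by the authors) in all 6 libraries. Of these 10, 5 rose, among them *KRT8*, *KRT18* and *KRT19*, which make up most of the sum (5128 to 5895 FPKM in DMSO and 7138 to 7625 FPKM after MPM-1), and 4 fell, with *CDX2* (-2.20) and *KRT20* (-2.03) falling most on the log2 scale. Of 15 markers of fibroblasts, endothelium and immune cells, 3 were in the table. *CD68* (1.08), a lysosomal gene that is not restricted to macrophages, rose and made up most of their sum (37.4 to 50.8 FPKM in DMSO and 71.0 to 74.7 FPKM after MPM-1), while *CD14* (-1.34) and *COL1A1* (-2.07) fell on the log2 scale. The 13 transcripts of mitochondrial DNA together fell from 91366 to 101045 FPKM in DMSO to 21297 to 25842 FPKM after MPM-1. The part of this fall in the results below was not tested, and a scaling without these 13 transcripts is given beside the counts.

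The 10 genes moved in both directions and by modest amounts. With the quasi-likelihood test of edgeR, adjusted by Benjamini-Hochberg over all genes, 2 of the 10 rose at an adjusted p under 0.05 (*BNIP3L* and *MFF*), against 27.7% of all genes tested, and 4 of the 10 fell (*PINK1*, *FIS1*, *FUNDC1* and *MFN1*), against 28.8% of all genes. The other 4 (*MFN2*, *OPA1*, *DNM1L* and *BNIP3*) did not pass. None of the 10 met the stricter definition of a differentially expressed gene (DEG), an adjusted p below 0.01 with a log2 fold change beyond 1 in either direction, which 5.58% of all genes reached upward and 8.75% downward. All 3 MPM-1 libraries lay above all 3 DMSO libraries for 3 of the 10 genes, against 31% of all genes, and below them for 4 of the 10, against 33.3%, so the counts of the 10 genes were near those of the whole table. The median log2 fold change of the 10 genes was 0.14, and that of all genes was -0.03. The counts stayed at 2 and 4 when transcripts of mitochondrial DNA were left out of the scaling. The scaling used here (TMM) already trims genes with extreme changes, so this setting could not show what part the fall of these transcripts played. With scaling by library size alone, under which the median of all genes was -0.18, 1 gene rose and 4 fell, and the median of the 10 genes was -0.01.

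**Figure D1:**
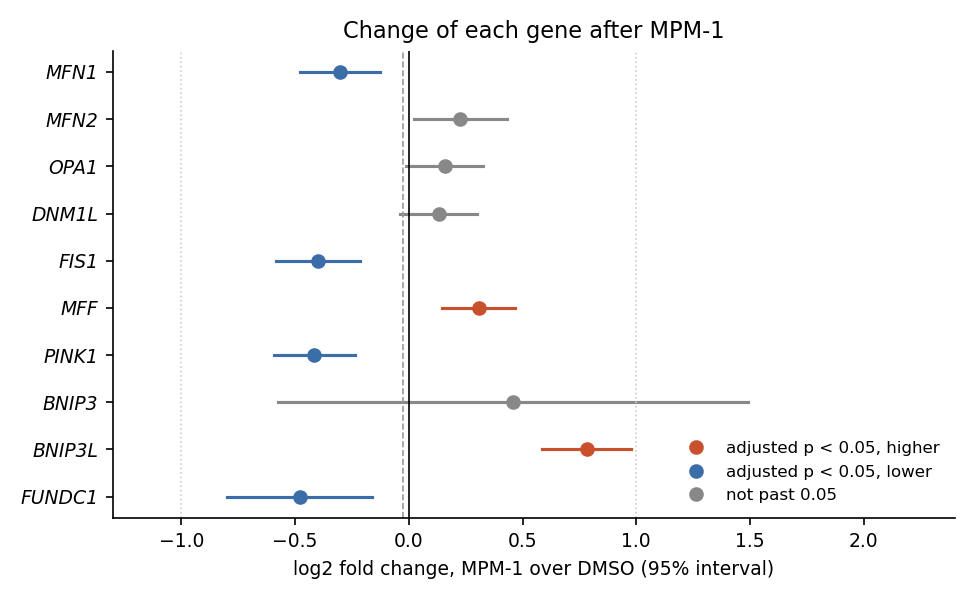
Log2 fold change of each of the 10 genes, MPM-1 over DMSO (3 libraries per treatment), with a 95% interval derived from the edgeR fit and not adjusted over genes. Red marks an adjusted p under 0.05 upward, blue the same downward and gray neither. The dashed line is the median of all 12982 genes (-0.03), and the dotted lines mark a log2 fold change of 1 in size, which no point reached. *BNIP3L* lies farthest to the right at 0.78 and *FUNDC1* farthest to the left at -0.48, and the interval of *BNIP3* is the widest.

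In levels per transcript length, the 10 genes spanned more than the treatment moved them. *FIS1* was the highest in DMSO, with 168 ± 14.1 FPKM (SD, n = 3), above 96.0% of the genes in the table. It was followed by *MFF* with 45.7 ± 0.488 FPKM and *PINK1* with 42.5 ± 2.81 FPKM, whose libraries lay close together without overlapping. *MFN2* with 22.4 ± 1.74 FPKM and *BNIP3L* with 20.8 ± 1.08 FPKM overlapped in their libraries. *FUNDC1* with 15.0 ± 1.57 FPKM, *DNM1L* with 14.9 ± 0.991 FPKM, *OPA1* with 14.3 ± 0.838 FPKM and *MFN1* with 13.8 ± 0.971 FPKM could not be ordered beyond their spread. *BNIP3* was the lowest by far, with 0.359 ± 0.117 FPKM, and only 3.03% of the genes in the table were lower.

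After MPM-1, *FIS1* was still the highest with 114 ± 6.76 FPKM (SD, n = 3) and *BNIP3* still the lowest with 0.462 ± 0.260 FPKM. *BNIP3L* moved above *PINK1* in this order, with 32.1 ± 2.44 FPKM against 28.7 ± 0.700 FPKM, and the 3 libraries of the one did not overlap those of the other. *MFN1* with 10.2 ± 1.11 FPKM and *FUNDC1* with 9.70 ± 1.39 FPKM were then below *DNM1L* with 15.4 ± 1.36 FPKM and *OPA1* with 15.1 ± 1.12 FPKM in every library.

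**Figure D2:**
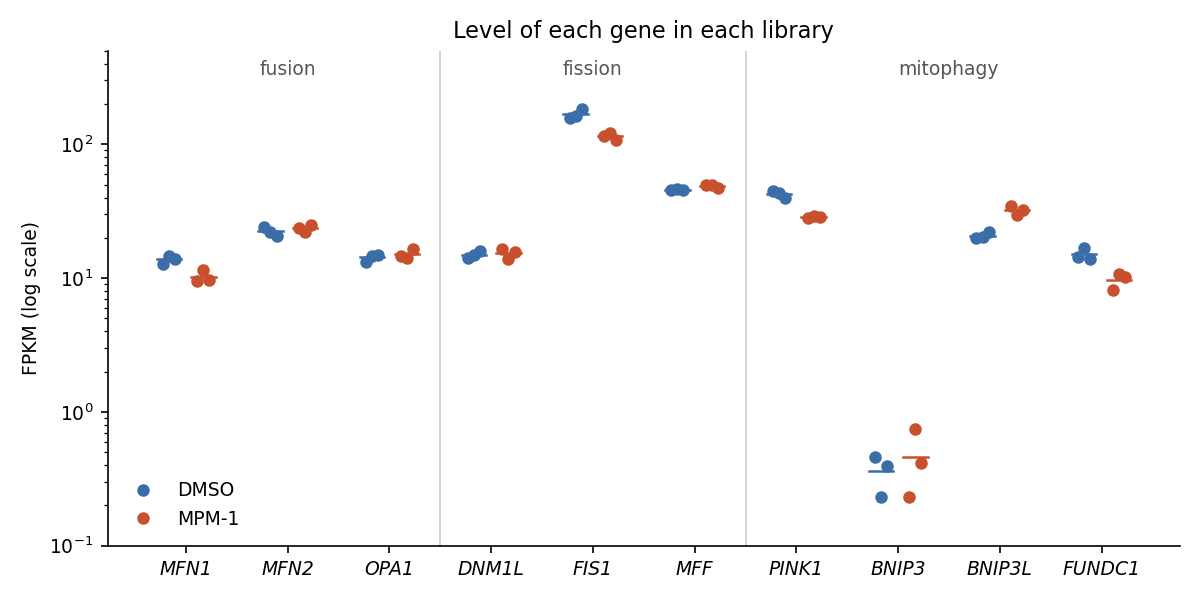
FPKM of the 10 genes (log axis) in each of the 6 libraries, DMSO in blue and MPM-1 in red, with a short line at each mean. Points of *FIS1*, *PINK1*, *FUNDC1* and *MFN1* after MPM-1 sit below their DMSO points, those of *BNIP3L* sit above, and *BNIP3* lies under 1 FPKM in every library with its points mixed.

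Among the fusion genes, *MFN1* fell, while *MFN2* and *OPA1* did not pass. *MFN1* (ENSG00000171109, chr3:179347692-179394931, plus strand, GRCh38), the mitofusin with the stronger tethering activity, had 63.0, 72.3 and 69.8 CPM (its counts per library, rescaled by TMM so that libraries compare) in DMSO and 54.5, 56.7 and 55.1 CPM after MPM-1. The 3 treated libraries were below the 3 controls and close to each other. Its log2 fold change was -0.30 (SE 0.08, adjusted p = 0.00893 by edgeR). Since CPM are shares of a bulk library, fewer cells that express a gene and less of its RNA per cell cannot be told apart, here and for the genes below.

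*MFN2* (ENSG00000116688, chr1:11980181-12013514, plus strand), which also tethers mitochondria to the endoplasmic reticulum, had 110, 97.2 and 91.6 CPM in DMSO and 119, 108 and 123 CPM after MPM-1. The groups overlapped, as the highest control lay above the lowest treated library. Its log2 fold change was 0.23 (95% interval 0.02 to 0.43, not adjusted over genes) and did not pass (adjusted p = 0.0583 by edgeR). It did pass without DMSO replicate 1 (0.30, adjusted p = 0.0167), without MPM-1 replicate 2 (0.30, adjusted p = 0.0238) and with the scaling of DESeq2 (0.25, adjusted p = 0.0489).

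*OPA1* (ENSG00000198836, chr3:193593144-193697823, plus strand), the dynamin-like GTPase of the inner membrane that also shapes cristae, had 82.7, 89.5 and 90.9 CPM in DMSO and 102, 93.5 and 97.5 CPM after MPM-1. The 3 treated libraries were above the controls, but by little, and in FPKM the groups overlapped. The log2 fold change was 0.16 (95% interval -0.01 to 0.33, adjusted p = 0.102 by edgeR), which did not pass and which leaves room for a rise of up to 1.25-fold.

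*MFN1* made up 34.6%, 40.0% and 40.2% of the summed FPKM of both mitofusins in DMSO and 28.6%, 34.1% and 28.1% after MPM-1. Within each library, where scaling plays no part, the log2 ratio of *MFN1* to *MFN2* counts was -0.54 ± 0.23 (SD, n = 3) in DMSO and -1.07 ± 0.13 after MPM-1, a difference of -0.53, with every treated library below every control. The exact two-sided permutation test gave p = 0.1, the smallest that 3 against 3 libraries allow, and 0.2 after Benjamini-Hochberg adjustment over the 4 pairs of genes compared in this way, so the design could not reach 0.05 here.

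Sequences before the transcription start were taken from RefSeq (GRCh38.p14) and are shown for 3 genes, each up to the first start that GENCODE 29 annotates. *MFN1* is shown as the mitofusin that fell and *OPA1* as the inner membrane partner that did not pass. All 3 sequences shown hold a match to a motif searched for. The stretches of *MFF*, *DNM1L* and *FUNDC1* before their first start hold none and are not shown. The windows lie at chr3:179347459-179347691 and chr3:193592958-193593143, both on the plus strand. Capitals mark matches, on either strand, to CCGGAAG, a site of ETS factors, in *MFN1*, and to GCATGCGC, the core of the site of nuclear respiratory factor NRF1, in *OPA1*, where 2 matches on opposite strands overlap.
MFN1: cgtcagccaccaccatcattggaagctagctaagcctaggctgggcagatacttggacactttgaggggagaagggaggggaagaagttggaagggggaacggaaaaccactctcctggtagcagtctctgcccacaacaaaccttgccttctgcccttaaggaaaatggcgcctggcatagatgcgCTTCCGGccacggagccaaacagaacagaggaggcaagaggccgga
OPA1: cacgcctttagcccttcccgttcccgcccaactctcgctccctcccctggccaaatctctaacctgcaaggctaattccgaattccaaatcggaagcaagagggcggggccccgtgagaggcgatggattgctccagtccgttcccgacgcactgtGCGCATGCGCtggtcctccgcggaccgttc

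A window of 250 bases before the RefSeq start was given for 8 of the 10 genes. CCGGAAG was present in the windows of *MFN1* (2 matches, of which the second reaches past the printed stretch) and *FIS1* (1 match), both among the genes that fell, and in 8.5% of 34788 windows of all genes. The window of *FUNDC1*, which fell as well, held no match, and *PINK1*, the remaining gene that fell, had no window. GCATGCGC was present in the window of *OPA1* alone among the 8 genes and in 2.57% of all windows. TGATGNAA, an element shared by the stress factors ATF4 and CHOP, matched in none of the windows of the 8 genes and in 3.16% of all windows. A match to these letters describes the sequence and does not show binding.

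Among the fission genes, the adaptors of DRP1 differed while *DNM1L* itself did not pass. *DNM1L* (ENSG00000087470, chr12:32679200-32745650, plus strand) had 59.3, 59.5 and 62.9 CPM in DMSO and 67.7, 62.4 and 68.9 CPM after MPM-1. One control lay above the lowest treated library. The log2 fold change was 0.13 (95% interval -0.04 to 0.30, adjusted p = 0.165 by edgeR), and it was -0.02 with scaling by library size alone. The gene overlaps *YARS2* on the other strand, and the strand setting of the counting is not given in the sources used here, so reads in the overlap may belong to either gene.

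*FIS1* (ENSG00000214253, chr7:101239458-101252316, minus strand), a tail-anchored outer membrane adaptor, had 117, 117 and 132 CPM in DMSO and 94.3, 96.4 and 87.0 CPM after MPM-1. The treated libraries were all below the controls. This gave a log2 fold change of -0.40 (SE 0.08, adjusted p = 0.00245 by edgeR), a fall to 0.758 of the control level.

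*MFF* (ENSG00000168958, chr2:227325151-227357836, plus strand), the main adaptor of DRP1 in many cells, had 75.3, 73.9 and 80.5 CPM in DMSO and 95.8, 95.6 and 92.7 CPM after MPM-1. The treated libraries were all above the controls. Its log2 fold change was 0.31 (SE 0.07, adjusted p = 0.00494 by edgeR). It did not pass with library size alone (0.16, adjusted p = 0.0895), nor in limma on log2(FPKM + 0.1), which also differs in measure, test and genes kept (0.09, adjusted p = 0.264), although in FPKM too the 3 treated libraries (46.9 to 49.9) lay above the 3 controls (45.2 to 46.1).

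The unequal change of these adaptors did not depend on scaling. The ratio of *MFF* to *FIS1* in FPKM was 0.291, 0.283 and 0.245 in DMSO and 0.433, 0.413 and 0.436 after MPM-1. In counts, the log2 ratio was -0.67 ± 0.04 (SD, n = 3) in DMSO and 0.03 ± 0.05 after MPM-1, a difference of 0.71, the widest separation of the 4 pairs relative to its spread. The exact two-sided permutation test gave its smallest possible p of 0.1 (0.2 after adjustment over 4 pairs). With the other adaptors *MIEF1* and *MIEF2* included, *FIS1* made up 73.8% to 76.8% of the summed FPKM of the 4 adaptors in DMSO and 65.9% to 66.9% after MPM-1.

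Across the divide between fission and fusion, the log2 ratio of *DNM1L* to *OPA1* counts was -0.53 ± 0.05 (SD, n = 3) in DMSO and -0.56 ± 0.05 after MPM-1. The difference of -0.03 was smaller than the spread between libraries (exact two-sided permutation p = 0.6, adjusted over the 4 pairs 0.7).

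**Figure D3:**
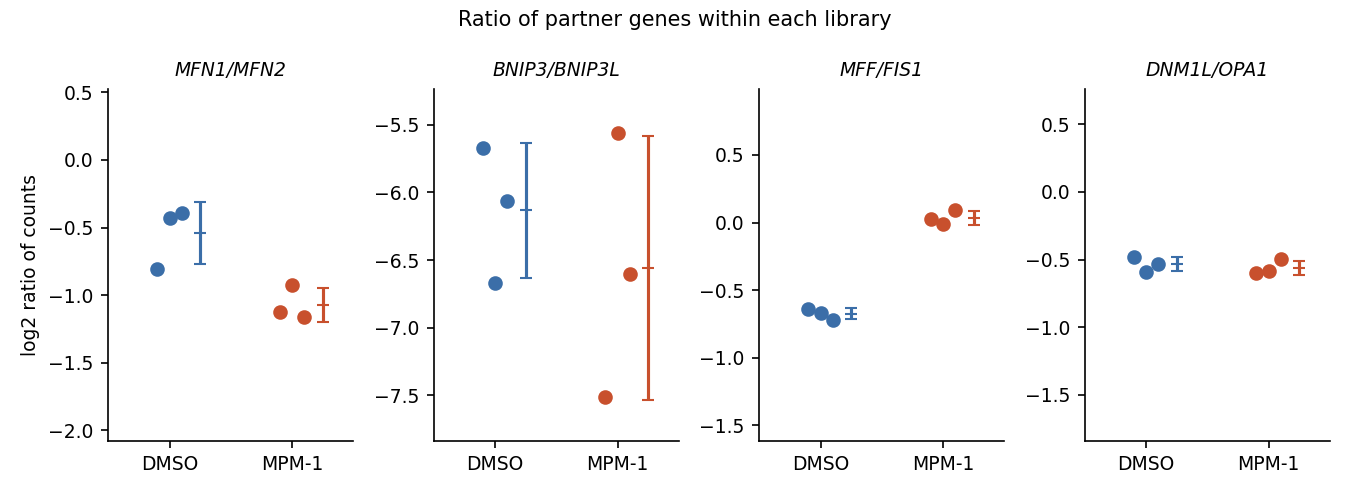
Log2 ratio of the counts of 2 genes within each library, DMSO in blue and MPM-1 in red, with the mean and SD of 3 libraries beside the points. The 4 panels span the same range on the log2 scale. The treated libraries lie below the controls for *MFN1*/*MFN2* and above them for *MFF*/*FIS1*, and they overlap for *BNIP3*/*BNIP3L* and *DNM1L*/*OPA1*.

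Among the mitophagy genes, *PINK1* and *FUNDC1* fell and *BNIP3L* rose. *PINK1* (ENSG00000158828, chr1:20633455-20651511, plus strand), the kinase that senses loss of membrane potential through its failed import, had 120, 111 and 102 CPM in DMSO and 82.5, 83.3 and 83.6 CPM after MPM-1. The treated libraries were below every control, with an SD of 0.573 CPM against 9.04 CPM in DMSO. The log2 fold change was -0.42 (SE 0.08, adjusted p = 0.00169 by edgeR). The gene overlaps the antisense gene *PINK1-AS*, which is not in the table, and without a stated strand setting their reads cannot be told apart. These are transcript levels, and PINK1 is known to be controlled largely by the stability of the protein, which was not measured here.

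*BNIP3L* (ENSG00000104765), the NIX receptor known for clearing mitochondria from maturing red cells, had 72.6, 70.6 and 77.1 CPM in DMSO and 138, 114 and 128 CPM after MPM-1. Each treated library was well above each control. The log2 fold change was 0.78 (SE 0.09, 95% interval 0.58 to 0.98, adjusted p = 7.1e-05 by edgeR), a 1.72-fold rise and the largest of the 10 genes among those that passed. It was higher than the log2 fold change of 90.0% of all genes. The gene overlaps *PNMA2* on the other strand, which had 3003 counts over the 6 libraries, so reads in the overlap may belong to either gene. It is the one gene of the 10 that a threshold of 0.58 on the log2 scale, in place of 1, would make a DEG.

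*FUNDC1* (ENSG00000069509, chrX:44523639-44543001, minus strand), a receptor regulated by phosphorylation, had 17.1, 19.5 and 16.2 CPM in DMSO and 10.8, 13.8 and 13.3 CPM after MPM-1. The treated libraries were all below the controls. Its log2 fold change was -0.48 (SE 0.14, adjusted p = 0.0166 by edgeR), and without DMSO replicate 2, the highest control, it was -0.40 and no longer passed (adjusted p = 0.0721).

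*BNIP3* (ENSG00000176171, chr10:131966455-131982013, minus strand), the paralog of *BNIP3L* and a classic gene of the hypoxic response, was close to the low end of the table. It had 47, 30 and 46 counts in DMSO and 23, 74 and 44 counts after MPM-1. In these counts one treated library was the highest and another the lowest of all 6. In CPM the highest was again MPM-1 replicate 2, but the lowest was DMSO replicate 2 (0.695 against 0.755 CPM in MPM-1 replicate 1). The log2 fold change was 0.46 (SE 0.46, 95% interval -0.58 to 1.49, adjusted p = 0.421 by edgeR), and it was -0.04 without MPM-1 replicate 2, and the interval runs from a fall to 0.671 of the control level to a 2.81-fold rise, so no difference was detectable at this depth. GENCODE annotates 39 pseudogenes of *BNIP3*, none of them in the table, and reads shared with such copies make its counts uncertain.

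The log2 ratio of *BNIP3* to *BNIP3L* counts was -6.13 ± 0.50 (SD, n = 3) in DMSO and -6.56 ± 0.97 after MPM-1 (exact two-sided permutation p = 0.7, also 0.7 after adjustment over the 4 pairs). In FPKM, *BNIP3L* made up 57.7%, 54.3% and 60.6% of the sum of the 3 receptors in DMSO and 80.4%, 71.9% and 75.3% after MPM-1. Among these 3 genes *BNIP3L* was the highest in every library, and its share was higher in each treated library than in any control. The share covers these 3 genes alone. *FKBP8*, among the regulators and receptors counted further below, was higher, with 244 FPKM in DMSO and 201 FPKM after MPM-1 as treatment means.

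The sequence before the start of *BNIP3* is shown because the gene was the lowest of the 10 in every library and its window holds an element known from hypoxic induction. The window lies at chr10:131982014-131982173, minus strand. Capitals mark CACGTG, a palindrome that contains ACGTG, the core of the hypoxia response element, on both strands.
BNIP3: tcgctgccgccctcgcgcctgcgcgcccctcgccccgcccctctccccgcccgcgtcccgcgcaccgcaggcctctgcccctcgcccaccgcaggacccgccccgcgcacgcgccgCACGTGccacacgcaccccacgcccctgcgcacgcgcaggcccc

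ACGTG on either strand was present in 18.5% and CACGTG in 6.31% of all windows. Among the 8 genes, ACGTG was also present once at a further start of *MFF*. The 250 bases before the RefSeq start of *BNIP3* held 41 CpG dinucleotides, more than 98.3% of all windows, whose median was 11. Methylation was not measured in this experiment.

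Since *BNIP3* and *BNIP3L* are known targets of hypoxia-inducible factors (HIFs), 24 other HIF targets and factors were counted. Of these, 11 rose and 9 fell, where the shares of all genes were 27.7% and 28.8% for this list and for those below, with a median log2 fold change of 0.02, and with scaling by library size alone 7 rose and 12 fell. The 6 DEGs that rose were *ADM* (3.15), *NDRG1* (2.22), *DDIT4* (1.93), *VEGFA* (1.60), *EPAS1* (1.27) and the hexokinase gene *HK2* (1.09), all as log2 fold changes, of which *HK2* was no DEG with library size alone (0.93). *ADM* and *VEGFA* encode secreted vascular factors, and *DDIT4* encodes an inhibitor of mTORC1 that other stresses also induce. The 3 DEGs that fell were *CA9* (-4.00), a carbonic anhydrase, *EGLN3* (-2.79), a HIF prolyl hydroxylase whose locus overlaps *SPTSSA* on the same strand, and *ANKRD37* (-1.76). *HIF1A* itself had a log2 fold change of 0.45 (adjusted p = 0.00196 by edgeR). *BNIP3L*, at 0.78, lay between *HIF1A* and *HK2* in this order.

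Around the 10 genes, 115 other genes of the surrounding pathways were tested, of which 50 rose and 30 fell, with 17 and 6 DEGs and a median log2 fold change of 0.17. The 115 include the 24 HIF targets and factors counted above, which gave 6 of the DEGs that rose and 3 of those that fell. The excess of rises depended on the setting, as 37 rose and 41 fell with scaling by library size alone (12 and 6 DEGs), and 36 rose and 37 fell in limma on log2(FPKM + 0.1). The list of autophagy adaptors and ATG8 proteins, the partners that mitophagy receptors and ubiquitin-coated mitochondria bind, stood highest. Of its 12 genes, 11 rose and none fell, 7 of them as DEGs, and the median log2 fold change was 1.06 (0.91 with scaling by library size alone, where 10 rose). *SQSTM1*, which encodes the ubiquitin adaptor p62, rose from 421 to 1419 FPKM as treatment means, with a log2 fold change of 1.92. *MAP1LC3B* rose by 1.97, *MAP1LC3A* by 1.53 and *GABARAPL1* by 1.05 on the log2 scale, all of them ATG8 genes. *MAP1LC3B2* had 1.99, but it is nearly identical to *MAP1LC3B* and its reads are uncertain. The adaptor genes *OPTN* (1.16) and *TAX1BP1* (1.07) were the other DEGs. With library size alone, *GABARAPL1* (0.89) and *TAX1BP1* (0.92) were no longer DEGs. *GABARAPL2* had 0.23 and did not pass (adjusted p = 0.0553 by edgeR). The receptor genes *BNIP3L* and *FUNDC1* stood beside them at 0.78 and -0.48.

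In the PINK1 arm, 21 genes were tested, of which 6 rose and 5 fell, none as a DEG, with a median log2 fold change of 0.09. The largest rises were in *TBC1D15* (0.80) and *RABGEF1* (0.63), regulators of RAB7 and RAB5 in mitophagy, and in *USP15* (0.78), a deubiquitinase that acts against mitophagy. The falls were led by *TOMM22* (-0.57), *PGAM5* (-0.53) and *TOMM7* (-0.36), and TOMM7 is the import subunit that holds PINK1 at the outer membrane. *TOMM20* (-0.00) and *VDAC1* (0.06), whose proteins are often used as measures of mitochondrial content, did not pass. These are RNA levels, and mitochondrial content was not measured here.

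Among 19 regulators and receptors of the other mitophagy arm, 8 rose and 4 fell, with a median of 0.19. This count moved with single libraries, as 3 rose without DMSO replicate 2 and 4 without DMSO replicate 3, MPM-1 replicate 1 or MPM-1 replicate 3, and with scaling by library size alone 3 rose and 7 fell. The DEGs were *FOXO3* (1.52), a transcription factor known to act on *BNIP3* and autophagy genes, and *NLRX1* (-1.10), an ATG8-binding protein of mitochondria. *CSNK2A1* (0.83), a catalytic subunit of casein kinase 2, which phosphorylates FUNDC1, and the ubiquitin ligase gene *MARCHF5* (0.64) followed among the rises. The treated libraries of *CSNK2A1* had 329, 299 and 308 CPM but 27.6, 46.6 and 55.7 FPKM. The 2 measures thus differ in its spread, and the reason was not tested. *PGAM5* (-0.53), the phosphatase that reverses this phosphorylation of FUNDC1, and *NIPSNAP1* (-0.44) followed among the falls.

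Among 14 other fusion genes, 6 rose and 4 fell (2 fell without MPM-1 replicate 3, and 6 fell with scaling by library size alone), with a median of 0.12. The DEGs that rose were *PLD6* (1.89) and *MIGA1* (1.05), which encode factors that act with the mitofusins on the outer membrane, and *MARCHF5* (0.64) was the third largest rise. *MIGA1* was no DEG with library size alone (0.91). *PLD6* overlaps *MPRIP* on the other strand, a gene with many more counts. *OMA1* (-1.20), the protease that cleaves OPA1 under stress, was the DEG that fell, from 4.65 to 1.82 FPKM as treatment means, while *YME1L1* (0.48), the other protease of OPA1, rose. The prohibitin gene *PHB* (-0.58) and *STOML2* (-0.29), whose proteins scaffold the inner membrane, also fell.

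Among 18 other fission genes, 8 rose and 5 fell (6 and 6 with scaling by library size alone), with a median of 0.14. *SPIRE1* (1.13), an actin nucleator at contact sites between mitochondria and the endoplasmic reticulum, was the DEG, but not with library size alone (0.98). *PPP3CA* (0.87), a subunit of the phosphatase calcineurin that acts on DRP1, and *MIEF2* (0.76) also rose. *MTFR2* (-0.82), *MIEF1* (-0.72) and *MTFP1* (-0.56) fell. The DRP1 adaptors moved in both directions, *MFF* (0.31) and *MIEF2* (0.76) upward and *FIS1* (-0.40) and *MIEF1* (-0.72) downward.

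For transport, 1 gene rose and 4 fell of 10 (2 rose without DMSO replicate 1 and 3 without MPM-1 replicate 2), led by *KIF5B* (0.54), a kinesin, upward and by *SNPH* (-1.04), the DEG, which encodes an anchor of mitochondria to microtubules, *ARMCX6* (-0.89) and *CLUH* (-0.45) downward. For the outer membrane import and pore proteins, 2 rose and 4 fell of 13 with a median of -0.00. *VDAC2* (0.61) rose and *VDAC3* (-0.74) fell, and *TOMM6* (1.68, SE 0.47) rose but shares its locus with a gene on the same strand. The 4 falls among the 10 genes, between -0.48 and -0.30, were smaller than those of *VDAC3* and *TOMM22*. The falls of *TOMM7* (-0.36) and *TOMM70* (-0.27) in the same list were smaller than those of *FUNDC1*, *PINK1* and *FIS1*. Of the other genes named in these lists, *NIPSNAP1* overlaps *THOC5* on the same strand, and *SQSTM1* (with *MGAT4B* and *MRNIP*), *MAP1LC3B* (*FBXO31*), *TAX1BP1* (*JAZF1*), *SPIRE1* (*PSMG2*), *YME1L1* (*MASTL*), *CA9* (*ARHGEF39*) and *ANKRD37* (*UFSP2*) overlap genes of the table on the other strand, so their counts carry the same uncertainty.

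**Figure D4:**
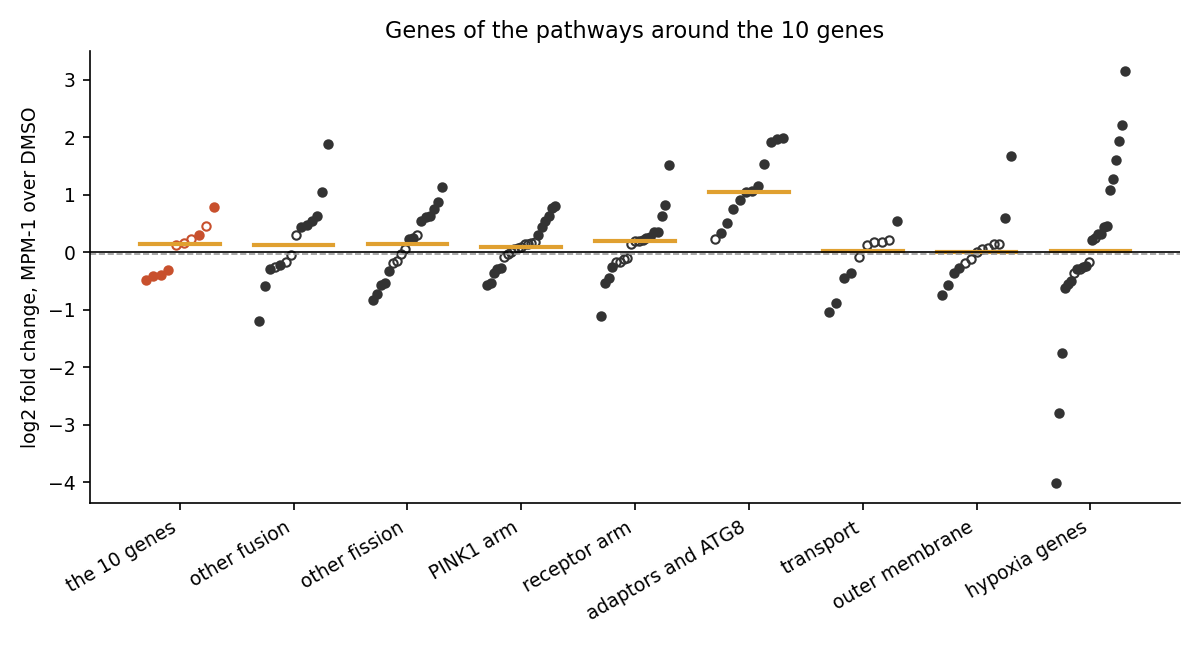
Log2 fold change, MPM-1 over DMSO, of every gene tested in the lists around the 10 genes, ordered within each list. Filled points had an adjusted p under 0.05 and open points did not. The yellow bar is the median of the list and the dashed line that of all genes. The 10 genes (red) lie between -0.48 and 0.78, and the list of adaptors and ATG8 genes has the highest median, 1.06.

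Over 16 alternative settings (12 for *BNIP3*, which 4 settings leave out as a low gene), *BNIP3L*, *PINK1*, *FIS1* and *MFN1* kept their direction and passed in all. *BNIP3L* ranged from 0.60 to 0.88 on the log2 scale, *PINK1* from -0.57 to -0.36, *FIS1* from -0.55 to -0.34 and *MFN1* from -0.45 to -0.26. *OPA1*, *DNM1L* and *BNIP3* passed in none.

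**Figure D5:**
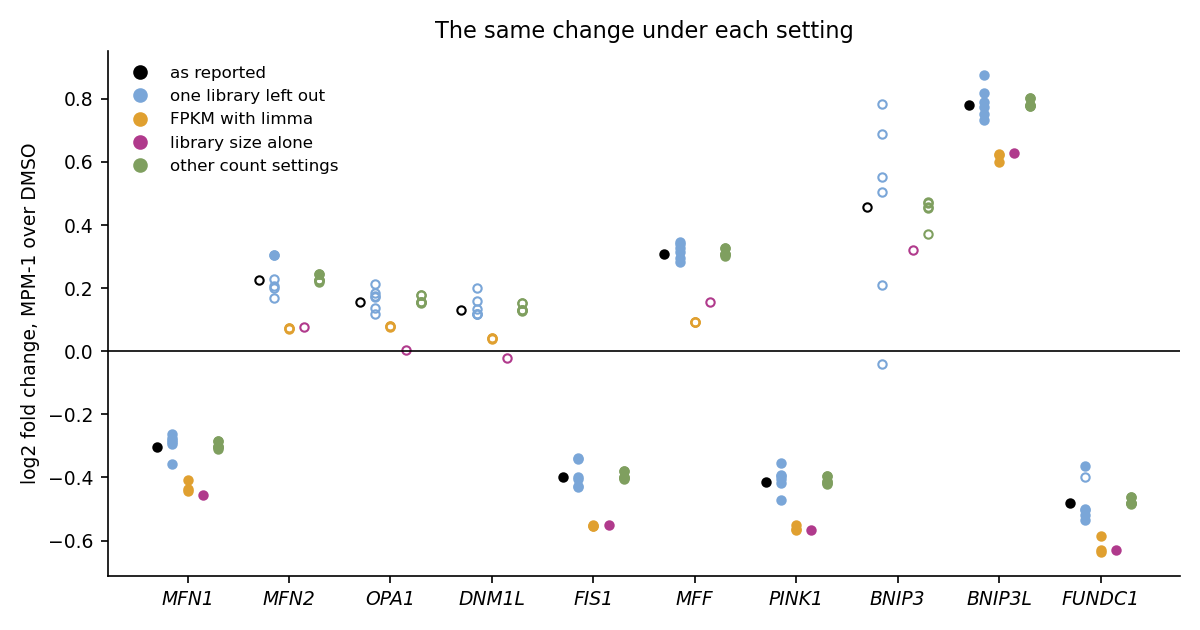
Log2 fold change of each of the 10 genes under the reported fit (black) and each alternative (colors), filled where the adjusted p was under 0.05. *BNIP3L* stays above 0.60 and *PINK1*, *FIS1* and *MFN1* stay below 0 with filled points throughout, *MFF* loses its call with FPKM and with library size alone, and *BNIP3* spreads from -0.04 to 0.78 with open points.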

How the data were processed

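Per the labels, total RNA of SW480 cells was made into mRNA libraries, 3 per treatment. The authors deposited 1 table with whole-number counts per gene and library, not normalized, and with FPKM, which they scaled for length and library size. The processing notes of the submitters list HISAT2, DESeq2 and the mouse build mm10. The gene identifiers are human, so positions were taken from GENCODE 29 (GRCh38) by identifier. The counting and its annotation are not given in the sources used here. The table also holds the authors' own log2 fold changes with adjusted p-values, as deposited, and neither was used. All rows had at least 115 counts in total, so genes with fewer were not analysed here.

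Counts were tested with edgeR 4.0.16 in R 4.3.3 (TMM scaling, quasi-likelihood test, filterByExpr with a minimum count of 10, which removed 0 genes), with Benjamini-Hochberg adjustment over 12982 genes. Intervals are at 95%. They and the SE were derived from the fold change and the F statistic of edgeR, with a t quantile, and were not adjusted over genes. Alternatives used DESeq2 1.42.0 and limma 3.58.1. The fit was tested on simulated data with planted changes larger than those of the 10 genes, so that test does not cover changes of their size. CPM are TMM-scaled. In 20 rows the symbol had become a date, and these were followed by identifier. Named genes are the 10 genes, and in each pathway list every DEG and the 3 largest rises and falls among genes that passed, with *TOMM20*, *VDAC1* and *HIF1A* asked for in addition. An item of this rule is not reported here. *YME1L1*, *GABARAPL2*, *FKBP8*, the cell type markers named and the overlapping genes were added after their values were seen. The alternative scalings of the pathway lists were added in the same way. The 10 genes and the lists were chosen with earlier results of these data known.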

Additional observations from a re-analysis of the deposited data

How the results depend on the processing

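The fold change of *MFN2*, 0.23 as reported, passed at 0.25 with the size factors of DESeq2 and at 0.25 in the test of DESeq2 (adjusted p = 0.0319), and ranged from 0.17 to 0.30 when 1 library at a time was left out. That of *MFF* no longer passed at 0.157 with library size alone and at 0.0935, 0.0918 and 0.0937 in limma on log2(FPKM + 0.1), log2(FPKM + 1) and log2(FPKM + 0.01), so the number of the 10 genes that rose was 1 in each of these 4 settings. *FUNDC1* ranged from -0.54 to -0.36 with 1 library left out and did not pass without DMSO replicate 2. With DEGs set at a log2 fold change of 0.58, the number that rose was 1. The median of the 10 genes was -0.00745 with library size alone. The causes of these differences were not tested. The median of all genes was -0.18 with library size alone and -0.15, -0.13 and -0.15 in the 3 limma fits, against -0.03 as reported, so falls read larger and rises smaller there.

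A fit with the replicate block gave 2 rises and 4 falls among the 10 genes, with *BNIP3L* at 0.78, *MFF* at 0.31 and *MFN1* at -0.30, and it changed no call among them. Libraries of equal number showed little shared deviation (correlations of 0.0214, 0.114 and -0.0737 for numbers 1, 2 and 3). Only number 2 correlated best with its own number in both directions. The numbers were therefore not used as a pairing, but the labels do not say whether libraries were paired. The paired exact test of the 4 ratios cannot go below p = 0.25 with 3 pairs. At 23 to 74 counts per library, the interval of *BNIP3* reached up to 2.81-fold. Each library's limit for a count of 0 was 0.0695 to 0.0985 CPM (3 counts), for counting error only.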
